A study of Sus scrofa with 6 samples.

Results

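The genes described here code for neutrophil granule proteins, the enzyme PADI4 and neutrophil receptors. They were read in peripheral blood mononuclear cells (PBMCs) as a measure of how much granulocyte RNA each preparation held. The term granule genes, as used below, includes PADI4. Of 8 listed symbols (LTF, MMP8, MMP9, PADI4, CHIT1, CSF3R, CXCR2 and LCN2), 6 matched the symbol column of the deposited table of 11564 genes. The receptors CSF3R and CXCR2 were dropped by the same rule and are not analysed here. Of the 6 genes, 5 had at least 1 FPKM (a fragment count divided by transcript length and by the size of the library) in at least 3 libraries and entered the test across 10735 genes, and MMP8 did not. The study had sequenced PBMC RNA of 6 pigs at 6 months of age, 3 labelled WT and 3 labelled leptin-overexpressing, 1 animal per library. The leptin-overexpressing pigs carried a pig leptin construct in a GFP vector, and were made by nuclear transfer from selected transfected fetal fibroblasts. The study's text names the leptin promoter for this construct, and its vector map shows a CMV promoter. The study's protocol describes the donor cells as those of a male Yorkshire fetus. Nontransgenic pigs were the controls. The paper does not state their breed or sex, or whether they were cloned. Effects of cloning, donor, breed or sex on a difference between labels therefore cannot be told apart from those of the transgene. How the PBMCs were separated from blood is not given in the sources used here.

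Neutrophils are granulocytes, and a density separation of blood is meant to leave them out of the mononuclear fraction. Their granules are filled in the bone marrow, where developing neutrophils make most granule proteins in successive waves, so that mature cells carry the proteins with less of the RNA. Neutrophils of low density and immature neutrophils can stay with the mononuclear cells. LTF (lactoferrin) and LCN2 (lipocalin 2) are proteins of the specific granules, which bind iron and iron-carrying siderophores. MMP8 (neutrophil collagenase) and MMP9 (gelatinase B) are matrix metalloproteinases stored in granules, and MMP9 is also made by monocytes and macrophages. CHIT1 (chitotriosidase) is a chitinase of neutrophil granules and of macrophages. PADI4 is an enzyme that converts arginine to citrulline in histones and takes part in the release of neutrophil extracellular traps.

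The transgene codes for leptin, so LEP was read first. LEP was at 50.0, 0 and 0.118 FPKM in WT replicates 1, 2 and 3 and at 0, 18.3 and 39.3 FPKM in leptin-overexpressing replicates 1, 2 and 3. In WT replicate 1 and leptin-overexpressing replicate 1, LEP was therefore opposite to what the label states. Each library is still called by its label, and the genotype comparison is also given without these 2 libraries. The number of fragments behind each value is unknown because FPKM holds no read counts, and the FPKM of all genes summed to between 444888 and 503140 per library.

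LTF (ENSSSCG00000029879, chromosome 13 from 32577738 to 32609442; the deposited table names no genome build for its coordinates) was at 25.6, 7.47 and 2.48 FPKM in WT replicates 1, 2 and 3. In leptin-overexpressing replicates 1, 2 and 3 it was at 3.49, 9.92 and 8.47 FPKM. The WT libraries held both the highest and the lowest LTF level, 10.3-fold apart, and all 3 leptin-overexpressing libraries lay between them. LCN2 (ENSSSCG00000005638, chromosome 1 from 302600678 to 302605199) was at 9.68, 5.64 and 1.58 FPKM in the WT libraries and at 3.25, 4.17 and 5.24 FPKM in the leptin-overexpressing libraries, in the same order. Again WT replicate 1 was highest and WT replicate 3 lowest, 6.14-fold apart, and the leptin-overexpressing libraries lay between.

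MMP8 (ENSSSCG00000029675, chromosome 9 from 37332087 to 37343577) was at 9.74, 0.928 and 0.0329 FPKM in WT replicates 1, 2 and 3. In the leptin-overexpressing libraries it was at 0.210, 0.852 and 1.20 FPKM. MMP8 was highest in WT replicate 1, 8.10-fold above the next library, and only 2 libraries reached 1 FPKM. The lowest MMP8 value was too near 0 to give a stable fold. MMP9 (ENSSSCG00000007436, chromosome 17 from 53819787 to 53827092), the other metalloproteinase, was at 59.7, 38.5 and 52.1 FPKM in the WT libraries and at 52.3, 225.3 and 55.6 FPKM in the leptin-overexpressing libraries. The high MMP9 value was that of leptin-overexpressing replicate 2, 3.78-fold above the next library, and the other 5 libraries lay between 38.5 and 59.7 FPKM. The metalloproteinases thus stood out in different libraries.

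CHIT1 (ENSSSCG00000015477, chromosome 9 from 125386397 to 125399889) was at 13.0, 8.96 and 1.85 FPKM in WT replicates 1, 2 and 3 and at 4.19, 13.3 and 5.35 FPKM in leptin-overexpressing replicates 1, 2 and 3. Its highest values, in leptin-overexpressing replicate 2 and WT replicate 1, differed by 1.02-fold, and the lowest was again WT replicate 3. PADI4 (ENSSSCG00000003483, chromosome 6 from 70279766 to 70310350) was at 96.4, 32.9 and 39.8 FPKM in the WT libraries and at 39.8, 79.6 and 48.6 FPKM in the leptin-overexpressing libraries. The same pair of libraries was highest for PADI4, but its lowest was WT replicate 2. The whole PADI4 range was 2.93-fold, the narrowest of the 6 genes. On the FPKM scale, which is per length, the median level over 6 libraries was 53.9 for MMP9 and 44.2 for PADI4, against 7.97 for LTF, 7.15 for CHIT1, 4.71 for LCN2 and 0.890 for MMP8. For LCN2 and MMP8, by contrast with CHIT1 and PADI4, leptin-overexpressing replicate 2 was only the fourth highest library.

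**Figure D1:**
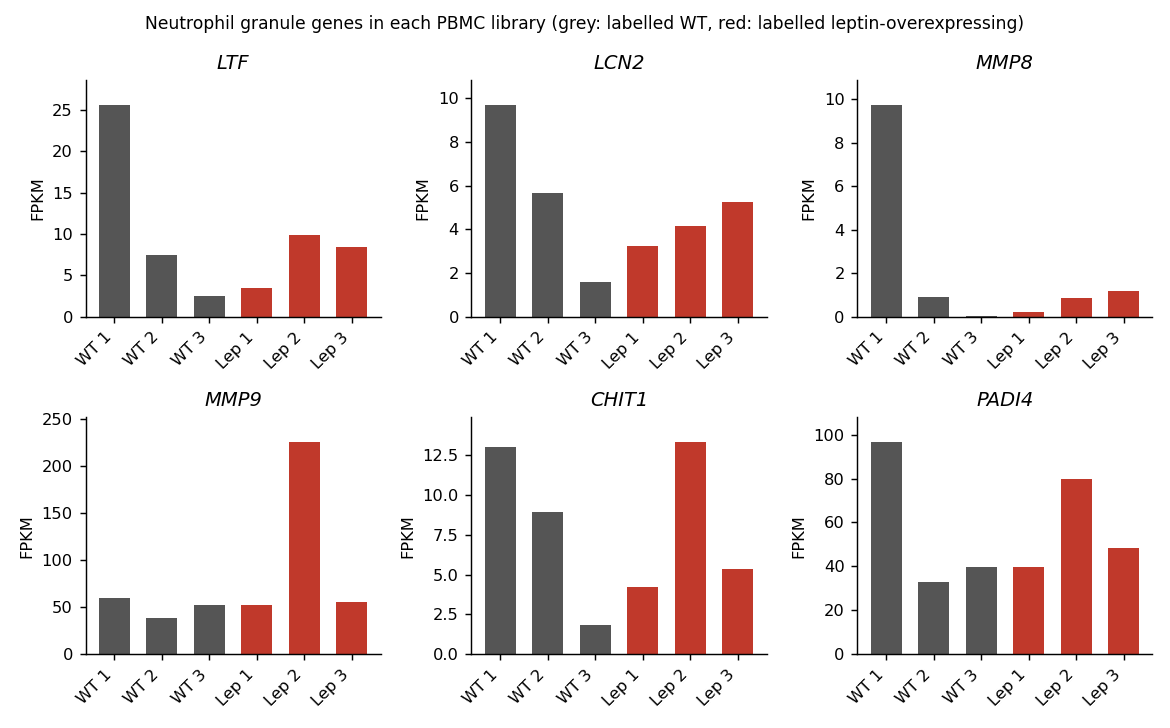
FPKM (vertical axis, linear from 0, a separate scale for each gene) of the 6 neutrophil granule genes in each PBMC library (horizontal axis), with grey bars for the 3 libraries labelled WT and red bars for the 3 labelled leptin-overexpressing. LTF, LCN2, MMP8 and PADI4 are highest in WT replicate 1, and MMP9 and CHIT1 in leptin-overexpressing replicate 2.

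WT replicate 1 was the highest library for 4 of the 6 genes, where 11.2% of all genes tested had it highest. Leptin-overexpressing replicate 2 was highest for the other 2 genes (14.8% of all genes tested). WT replicate 3 was the lowest library for 4 of the 6 genes, LTF, LCN2, MMP8 and CHIT1, against 7.95% of all genes tested. WT replicate 1 and leptin-overexpressing replicate 2 were together the highest pair for LTF, MMP9, PADI4 and CHIT1 (6.07% of all genes tested). The 3 libraries with LEP at 18.3 FPKM or more were also the 3 highest for LTF, MMP9 and PADI4, an order held by 2.49% of all genes tested, but not for MMP8, CHIT1 or LCN2. For MMP9 the order below leptin-overexpressing replicate 2 was close. WT replicate 1 and leptin-overexpressing replicate 3 were at 59.7 and 55.6 FPKM, against 52.3 FPKM in leptin-overexpressing replicate 1 and 52.1 FPKM in WT replicate 3. These orders are descriptions of 6 libraries and carry no test. Ranked by the SD of log2(FPKM + 1) over the 6 libraries, LTF was 103rd of 10735 genes, CHIT1 156th, MMP9 165th, LCN2 309th and PADI4 426th. All 5 were thus among the most variable 3.97% of the genes tested.

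Ratios between the granule genes were compared across libraries. The ratio of LTF to LCN2, both specific granule genes, lay between 1.07 and 2.64, a 2.46-fold range and the smallest of the 15 pairs. LTF to CHIT1 had a 2.63-fold range and CHIT1 to LCN2 a 3.13-fold range. LTF, LCN2 and CHIT1 thus moved most nearly together. PADI4 to LTF had a 4.25-fold range, and MMP9 to LTF a 9.73-fold range. From WT replicate 3 to WT replicate 1, LTF was 10.3-fold higher, CHIT1 7.02-fold and LCN2 6.14-fold, while PADI4 was 2.42-fold and MMP9 1.15-fold higher. From WT replicate 3 to leptin-overexpressing replicate 2, CHIT1 was 7.18-fold higher, MMP9 4.33-fold, LTF 3.999-fold and LCN2 2.65-fold. MMP9 thus lay near LTF in the second of these pairs and far below it in the first, and its ratio to LTF was not fixed. In RNA from mixed cells, fewer cells of a type and less RNA per cell cannot be told apart.

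The genotype comparison asks whether leptin-overexpressing pigs differed from WT pigs in these genes. None of the 5 genes tested had an adjusted p under 0.05 (limma, Benjamini-Hochberg over all 10735 genes, of which 0.00932% passed), and 0 had an unadjusted p under 0.05, against 3.18% of all genes. The groups overlapped for all 6 genes, where 7.63% of all genes tested had no overlap. The log2 fold changes below are on the log2(FPKM + 1) scale, leptin-overexpressing minus WT, which understates the change of low genes. MMP9 had the largest difference of the genes tested, with 50.1 ± 10.7 FPKM in WT and 111.1 ± 99.0 FPKM in leptin-overexpressing libraries (SD, n = 3). Its log2 fold change was 0.81 (standard error 0.51, 95% interval -0.38 to 1.99, adjusted p = 0.993, limma), and the exact two-sided permutation p was 0.4. The smallest p that this exact test can give with 3 against 3 is 0.1. Low FPKM values shared whole-fragment steps among the leptin-overexpressing libraries (24.2% to 53.7% of genes under 0.6 FPKM) more than in pairs with a WT library (at most 13.7%). The part of this difference in the genotype comparison was not tested.

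LTF was at 11.8 ± 12.1 FPKM in WT and 7.29 ± 3.37 FPKM in leptin-overexpressing libraries (SD, n = 3). Its log2 fold change was -0.25 (standard error 0.67, 95% interval -1.80 to 1.30, adjusted p = 0.993, limma). LCN2 was at 5.63 ± 4.05 and 4.22 ± 0.995 FPKM (SD, n = 3), a log2 fold change of -0.14 with an interval from -1.19 to 0.92. CHIT1 was at 7.94 ± 5.65 and 7.62 ± 4.96 FPKM (SD, n = 3), and its log2 fold change was 0.082 with an interval from -1.30 to 1.46. PADI4 was at 56.4 ± 34.8 and 56.0 ± 20.9 FPKM (SD, n = 3), and its log2 fold change was 0.091 with an interval from -0.86 to 1.04. For CHIT1 and PADI4 the sign turned with the scale, since the mean FPKM was lower and the mean log2 value higher in leptin-overexpressing libraries. MMP8, outside the test, had a difference of -0.71 on the same scale. The intervals are wide enough to hold both a 2-fold higher and a 2-fold lower level for LTF and CHIT1. On the log2 scale 3 of the 6 genes were on the higher side in leptin-overexpressing libraries, beside 63.1% of all genes tested. By mean FPKM only MMP9, 1 of the 6, was on the higher side, beside 62.5% of all genes tested. The median of the 6 differences was -0.028, beside 0.059 over all genes tested.

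**Figure D2:**
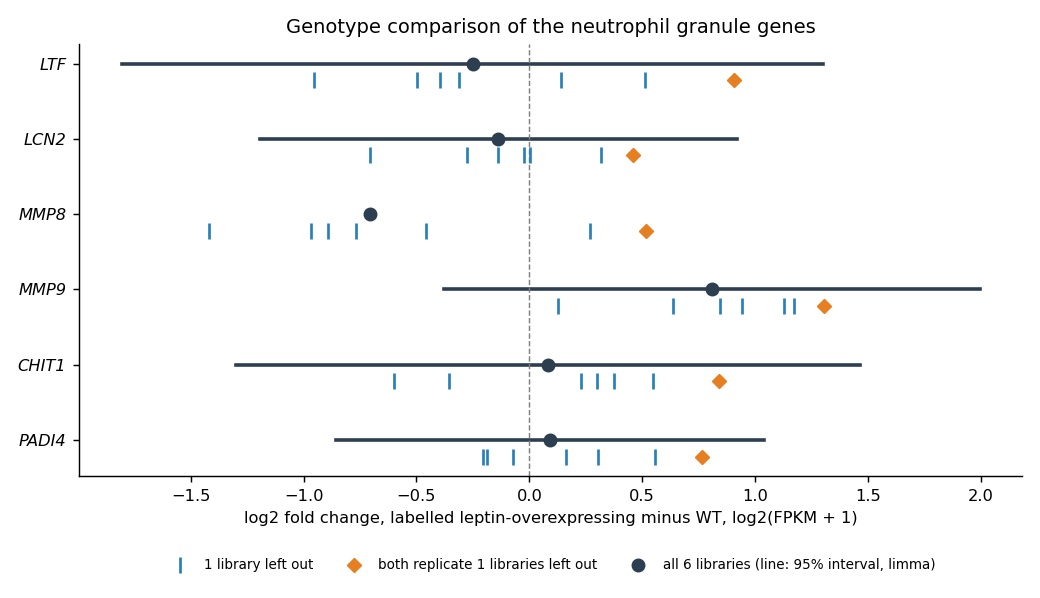
Log2 fold change of each neutrophil granule gene between labels (horizontal axis, log2(FPKM + 1), leptin-overexpressing minus WT), with dots for all 6 libraries, lines for the 95% interval of limma (none for MMP8, which was not tested), blue ticks for fits with 1 library left out and orange diamonds for fits without both replicate 1 libraries. Every interval crosses 0, and the orange diamonds lie between 0.46 and 1.30, above 0 for all 6 genes.

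The direction of most of these genes rested on single libraries. Without WT replicate 1, all 6 differences were positive, beside 51.6% of all genes tested, and their median was 0.53, beside 0.0066. Without WT replicate 3, 1 of the 6 was positive, beside 67.5% of all genes tested, and the median was -0.65, beside 0.11. LCN2 then had a log2 fold change of -0.71 (unadjusted p = 0.0284, adjusted p = 0.614, limma, 7.99% of genes under the unadjusted threshold in that fit). MMP9 was positive in every fit that left out 1 library, but was at 0.13 without leptin-overexpressing replicate 2. Without both replicate 1 libraries, whose LEP goes against their labels, all 6 differences were positive, beside 43.2% of all genes tested. The median of the 6 differences was then 0.80, beside -0.032 over all genes tested. WT replicate 1 was above the gene's median for all 6 genes and leptin-overexpressing replicate 1 for 0. Leaving out these libraries thus moves the differences upward whatever the labels should be. In that comparison of 2 against 2 libraries, LTF was at 0.91 (adjusted p = 0.999, limma) and MMP9 at 1.30 (adjusted p = 0.999, limma). PADI4 was at 0.77 and was the 1 gene with an unadjusted p under 0.05 (adjusted p = 0.999, limma), where 2.32% of all genes had one. No gene of the 6 had an adjusted p under 0.05 in any fit that included it.

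Other genes of neutrophils were read from a list of 47 symbols, of which 24 were found and 23 tested. In leptin-overexpressing libraries 11 of the 23 lay on the higher side and 12 on the lower side, beside 63.1% of all genes tested on the higher side. None had an adjusted p under 0.05 (limma), and 2 of the 23 had an unadjusted p under 0.05, beside 3.18% of all genes tested. The median difference of the 24 genes was -0.070. WT replicate 1 was the highest library for 12 of the 24 and leptin-overexpressing replicate 2 for 7. The calgranulins, calcium-binding proteins abundant in the cytosol of neutrophils and monocytes, had the same top library as LTF. S100A12 was at 1702 FPKM in WT replicate 1 and at 188.1 to 437.1 FPKM in the other 5 libraries. S100A9 was at 1031 FPKM there and at 93.2 to 370.1 FPKM in the others. Their log2 fold changes of -0.65 and -0.66 (adjusted p = 0.993 for both, limma) were within the spread between libraries. The range of S100A9 was 11.1-fold and that of S100A12 9.05-fold, near the 10.3-fold range of LTF.

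Other abundant genes of that list varied less. STEAP4, a metalloreductase, ranged from 410.1 to 982.3 FPKM, ALOX5AP, which serves leukotriene synthesis, from 260.1 to 596.5 FPKM, and LYZ (lysozyme, also in monocytes) from 129.1 to 441.6 FPKM. STEAP4 and LYZ were highest in leptin-overexpressing replicate 2, as was MMP9, and ALOX5AP in WT replicate 1. Of genes for primary granule proteins, which are made first in the marrow, ELANE (neutrophil elastase) was at 0.275 to 1.05 FPKM and AZU1 (azurocidin) at 1.26 to 6.45 FPKM. MPO, PRTN3 and CTSG were not analysed here. AZU1 and NPG1 (a protegrin, an antimicrobial peptide of pig neutrophils) were the 2 genes under the unadjusted threshold. AZU1 had a log2 fold change of 0.75 (adjusted p = 0.993, limma) and NPG1, at 0.521 to 2.48 FPKM, one of 0.68 (adjusted p = 0.993, limma).

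**Figure D3:**
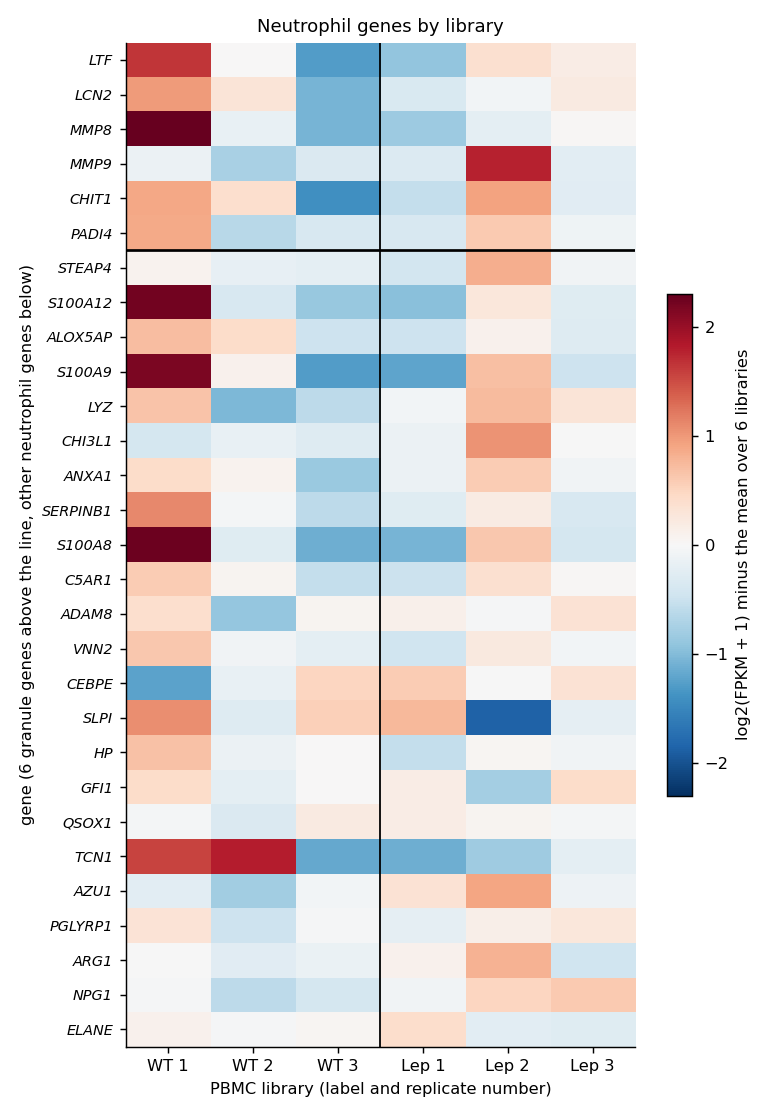
Log2(FPKM + 1) of each gene minus its mean over the 6 libraries (colour scale, red above and blue below the mean), with the 6 granule genes above the horizontal line and 23 of the other neutrophil genes below it in order of mean FPKM. WT replicate 1 is reddest for LTF, LCN2, MMP8, S100A12, S100A9 and S100A8, and leptin-overexpressing replicate 2 for MMP9, STEAP4 and CHI3L1.

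The genes whose levels over the 6 libraries were most like those of the 5 tested granule genes were sought among 7104 genes with a symbol, by the root mean square difference from their mean centred log2(FPKM + 1). The median difference over these genes was 0.721. The closest 8 were CD14 at 0.0759, OSCAR at 0.0786, RETN at 0.143, RGS2 at 0.167, MREG at 0.223, C5AR1 at 0.245, ANXA1 at 0.251 and C19orf38 at 0.254. C5AR1 and ANXA1 were also on the list of other neutrophil genes. By the same measure PADI4 was at 0.303, CHIT1 at 0.327, LCN2 at 0.396, LTF at 0.436 and MMP9 at 0.687. CD14, the lipopolysaccharide coreceptor of monocytes, was at 291.4, 159.3 and 99.9 FPKM in WT replicates 1, 2 and 3. In the leptin-overexpressing libraries CD14 was at 121.5, 262.9 and 166.5 FPKM. CD14 therefore put the 6 libraries in the same order as LTF, over a 2.92-fold range. OSCAR, a receptor of myeloid cells, ranged from 8.18 to 28.9 FPKM, and RETN (resistin) from 5.73 to 18.3 FPKM.

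Markers of the other blood cells were read beside the granule genes. The 6 granule genes summed to between 94.4 and 214.0 FPKM in the WT libraries and between 103.2 and 333.1 FPKM in the leptin-overexpressing libraries, a sum that MMP9 and PADI4 dominate. Monocyte genes (12 of 14 symbols found, 13 rows) summed to between 686.2 and 1035 FPKM in WT and between 837.8 and 1270 FPKM in leptin-overexpressing libraries. Their highest sum was in leptin-overexpressing replicate 2, the next in WT replicate 1 and the lowest in WT replicate 3, but this sum is carried by a few abundant genes. WT replicate 1 was the highest library for 1 of the 13 rows, CD14, and leptin-overexpressing replicate 2 for 4. The median of the 13 rows, centred on the log2(FPKM + 1) scale, was -0.0405 in WT replicate 1, against 0.93 for the 6 granule genes, and 0.37 in leptin-overexpressing replicate 2, against 0.49. The monocyte list as a whole thus did not stand high in WT replicate 1 as the granule genes did. In that library the same median was 0.42 for the other neutrophil genes and 0.49 for platelet genes. For the 3 erythroid rows it was 1.03, which is the value of HBM alone. HBM did not enter the test and was at only 1.78 FPKM there, so this median says little about the erythroid list. The median in WT replicate 1 was 0.065 for T cell, -0.049 for NK cell, -0.58 for B cell and -0.88 for eosinophil and basophil genes. LGALS3 ranged from 187.8 to 383.7 FPKM and CTSS from 182.4 to 296.6 FPKM. The part of monocytes in the differences between libraries was not tested. T cell genes (14 of 14 symbols), which mark the expected lymphocytes, summed to between 934.6 and 1275 FPKM in WT and between 821.7 and 1441 FPKM in leptin-overexpressing libraries. CD3E was at 213.0 FPKM in leptin-overexpressing replicate 2, its lowest library, and at 249.4 to 372.2 FPKM in the others, and ZAP70 was lowest there too, at 91.4 FPKM.

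The sum of B cell genes (5 of 10 symbols found) was lowest in WT replicate 1, at 380.1 FPKM against 550.0 to 675.6 FPKM in the other 5 libraries. CD79A was at 132.6 FPKM and CD79B at 101.9 FPKM in that library. NK cell genes (7 of 9 symbols) summed to between 244.9 and 624.4 FPKM in WT and between 367.6 and 561.9 FPKM in leptin-overexpressing libraries, with GNLY highest in WT replicate 1 at 403.0 FPKM and NKG7 in WT replicate 3 at 123.3 FPKM. Platelet genes (9 of 10 symbols, 10 rows) summed to 850.3 FPKM in WT replicate 1 and 942.2 FPKM in leptin-overexpressing replicate 2, above the 347.3 to 709.5 FPKM of the others. PF4 was at 358.1 FPKM in WT replicate 1 and MYL9 at 400.0 FPKM in leptin-overexpressing replicate 2, their highest libraries. GP1BB was listed at 0 in some libraries. The sum of erythroid genes (3 of 10 symbols) was made up mostly of HBB, a hemoglobin chain, at 211.4 FPKM in WT replicate 1 against 17.7 to 97.1 FPKM elsewhere. ALAS2, of heme synthesis, was highest in leptin-overexpressing replicate 2, at 6.86 FPKM against 5.70 FPKM in WT replicate 1, and HBM was listed at 0 in some libraries. HBB and the platelet sum thus stood high in WT replicate 1, and their part in the granule gene levels was not tested.

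Eosinophil and basophil genes (6 of 14 symbols) were at a sum of 38.0 FPKM in WT replicate 1, the lowest of the 6 libraries, and 184.2 FPKM in leptin-overexpressing replicate 2, the highest. FCER1A, a chain of the high-affinity IgE receptor, was at 18.3, 26.1 and 33.0 FPKM in WT replicates 1, 2 and 3 and at 44.3, 87.7 and 34.7 FPKM in leptin-overexpressing replicates 1, 2 and 3. It was higher in every leptin-overexpressing library than in any WT library, where 7.63% of all genes tested had no overlap between labels. Its log2 fold change was 1.01, with an unadjusted p under 0.05, but not an adjusted one (adjusted p = 0.993, limma). MS4A2, the beta chain of that receptor, was at 11.7 FPKM in WT replicate 1 and 67.0 FPKM in leptin-overexpressing replicate 2. These receptor genes carry the sum in leptin-overexpressing replicate 2, where the eosinophil genes of the list were not high. IL5RA, a chain of the interleukin 5 receptor, was second lowest there at 3.52 FPKM, and EPX (eosinophil peroxidase) was at 2.60 FPKM there, below 3 of the other libraries. WT replicate 1, the library highest in LTF and MMP8, was thus lowest in FCER1A and MS4A2. Leptin-overexpressing replicate 2, the library highest in MMP9, was highest in both of these genes. Across the 8 lists beside the granule genes, 0 of 78 genes tested had an adjusted p under 0.05 between labels (limma), and 3 of the 78, or 3.85%, had an unadjusted p under 0.05 (NPG1, AZU1 and FCER1A), near the 3.18% of all genes tested.

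**Figure D4:**
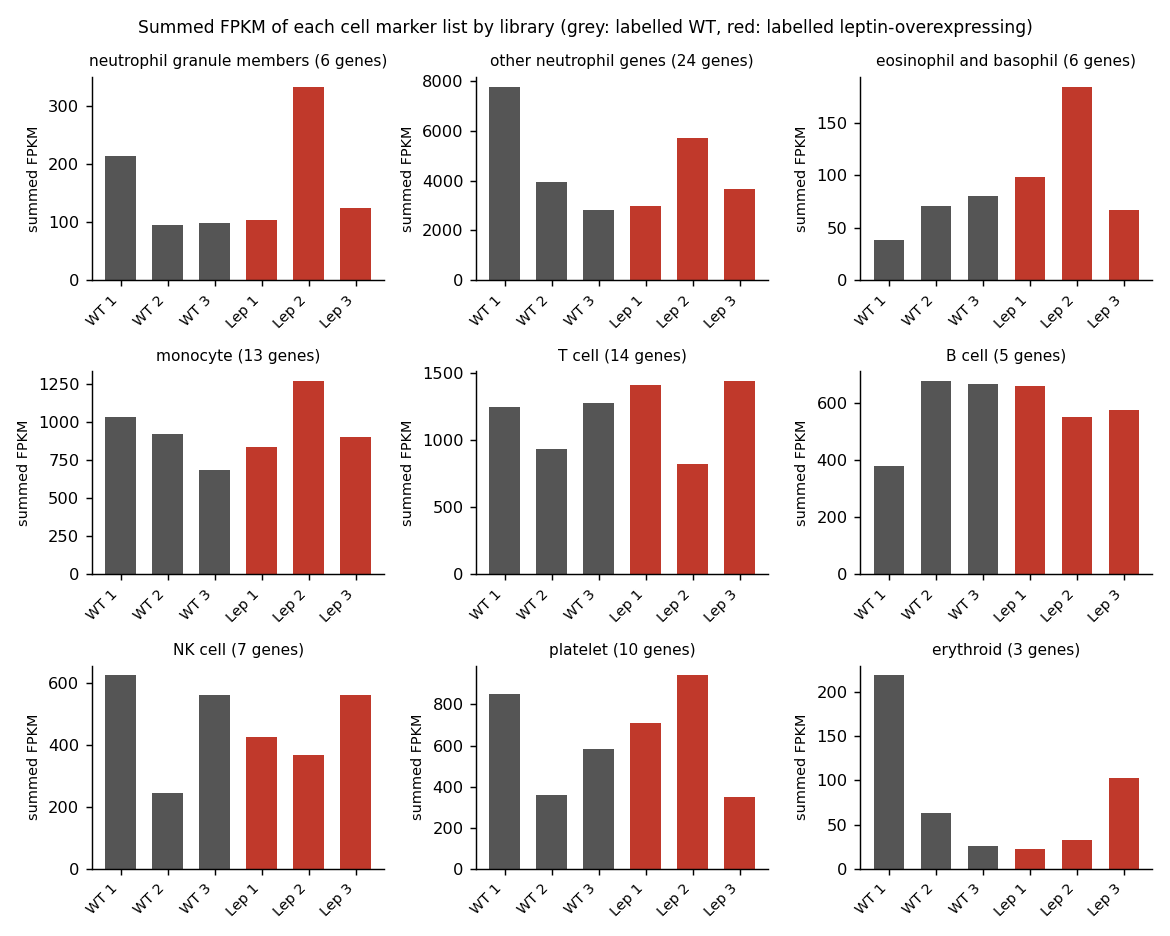
Summed FPKM (vertical axis, linear from 0, separate scales) of the 6 granule genes and of 8 lists of blood cell markers in each library (horizontal axis), grey for WT and red for leptin-overexpressing labels. Neutrophil, monocyte and platelet sums are highest in WT replicate 1 and leptin-overexpressing replicate 2, and the B cell sum is lowest in WT replicate 1.

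The annotation columns of the table were searched for what the granule genes share beyond their symbols. LTF, MMP8 and CHIT1 carried the term for extracellular space, held by 168 of the 3487 rows with a cellular component. MMP8 and MMP9 carried metalloendopeptidase activity (16 of 2924 rows with a molecular function) and extracellular matrix (15 of 3487 rows). No term was shared by all 6 genes. They lay on 5 chromosomes, with MMP8 and CHIT1 both on chromosome 9.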

How the data were processed

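RNA-seq of PBMCs from 6 pigs was analysed, grouped by the sample labels, and the animal code in a column's header tied it to its label (0 columns unmatched). The authors deposited 1 FPKM value per gene and library from strand-specific paired-end libraries. The paper's methods name Bowtie on the Ensembl transcriptome and RSEM, whereas the submitters' processing notes list FastQC, STAR 2.5, Cuffnorm and DESeq 1.22.1. Deposited log2 fold changes, p-values and FDR values are the authors' own comparison and were not used. Genes under 0.6 FPKM were checked for whole-fragment steps in all 15 pairs of libraries. In the 3 pairs of leptin-overexpressing libraries 24.2% to 53.7% of genes lay on one ratio, and 1 fragment was worth 1.10 times as much in replicate 2 as in replicate 1 and 0.979 times as much in replicate 3. In the 12 pairs with a WT library at most 13.7% did. The pairs of 2 WT libraries were among these, at 8.0% to 11.2%. Shared steps thus stood out among the leptin-overexpressing libraries only. Whether the values were made alike under both labels was not tested. Fragment counts were not recovered, and precision rests on 3 animals per label.

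Genes reaching 1 FPKM in 3 or more libraries were fitted with limma 3.58.1 (lmFit, eBayes) in R 4.3.3 on log2(FPKM + 1), two-sided, Benjamini-Hochberg adjusted over all genes tested. Exact permutation tests used SciPy 1.17.1 and Python 3.11.15. The fit was also run on simulated data, and no outcome of that run is reported here. Genes, marker lists and tests were chosen with earlier results of these data known. Text names the members, the 6 most abundant other neutrophil genes and any past the adjusted threshold, the 2 most abundant genes of each other list, the 8 closest profiles and LEP. Others were named after their values were seen. Of the most abundant other neutrophil genes, 1 is not reported here. Alternatives were the pseudocount, the filter, median-of-ratios scaling, a replicate block and left-out libraries. Sequences are not printed, and a planned promoter motif search was not run, since the reference tables used here hold gene names only.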

Additional observations from a re-analysis of the deposited data

How the results depend on the processing

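No granule gene had an adjusted p under 0.05 in any of the 12 alternatives (limma), and without a filter MMP8 had a log2 fold change of -0.71 (adjusted p = 0.991). Without both libraries whose LEP goes against their label, LTF was at 0.91, MMP8 at 0.52 and LCN2 at 0.46, on the other side of 0 from the full comparison. The count of granule genes with an unadjusted p under 0.05 was then 1 in place of 0, and the median difference of the 6 genes was 0.80 in place of -0.028. Over the 6 fits that each left out 1 library, the log2 fold change ranged from -0.95 to 0.51 for LTF, from -0.71 to 0.32 for LCN2, from -0.60 to 0.55 for CHIT1, from -0.21 to 0.55 for PADI4, from 0.13 to 1.17 for MMP9 and from -1.42 to 0.27 for MMP8. The count at an unadjusted p ranged from 0 to 1, and the median from -0.65 to 0.53. WT replicates 1 and 3 set the ends of the LTF, LCN2, CHIT1 and MMP8 ranges and of the range of the median. With median-of-ratios scaling PADI4 was at 0.026 and CHIT1 at 0.018, and the median over all genes tested went from 0.059 to 0.0022. Same-numbered libraries came from different animals, and their deviations correlated at -0.284, 0.135 and -0.00728. They were not treated as pairs in the main fit. Whether any were collected or prepared together was not tested. With the replicate block the median difference was again -0.028 and 0 granule genes passed either threshold. The cause of these differences was not tested.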

Other observations

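Some genes of the other neutrophil list had a library pattern unlike that of LTF, and they were picked out after their values were seen. TCN1, a cobalamin carrier of specific granules, was at 9.06 and 11.01 FPKM in WT replicates 1 and 2, at 0.525 FPKM in WT replicate 3 and at 0.567, 0.938 and 1.95 FPKM in leptin-overexpressing replicates 1, 2 and 3. Its log2 fold change was -1.45 (unadjusted p = 0.0748, adjusted p = 0.993, limma), and the groups overlapped. SLPI, an inhibitor of neutrophil elastase, was at 50.3 FPKM in WT replicate 1 and at 5.66 FPKM in leptin-overexpressing replicate 2, the libraries with most PADI4. CEBPE, a transcription factor of late granulocyte development, was lowest in WT replicate 1, at 11.4 FPKM against 24.8 to 42.3 FPKM in the other 5 libraries, whereas LTF was highest there.

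CHIT1 lies 32786 bp from CHI3L1 on chromosome 9, a related gene whose product binds chitin without cleaving it. CHI3L1 was at 197.0, 231.4 and 211.5 FPKM in the WT libraries and at 236.0, 534.2 and 257.4 FPKM in the leptin-overexpressing libraries. It had no overlap between labels, as had 7.63% of all genes tested. Its log2 fold change was 0.58 (unadjusted p = 0.0855, adjusted p = 0.993, limma). The ratio of CHI3L1 to CHIT1 was 15.1 in WT replicate 1 and 114.1 in WT replicate 3, so these neighbours did not keep a fixed proportion. CHI3L1 had its highest value in leptin-overexpressing replicate 2, the library highest in MMP9.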
